A study of Rattus norvegicus with 8 samples.

Results

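Adenosine and ATP act outside cells as signals, and the genes described here encode 4 adenosine receptors (Adora1, Adora2a, Adora2b, Adora3), 4 ATP and ADP receptors (P2rx4, P2rx7, P2ry1, P2ry12) and 2 ectonucleotidases (Entpd2, Nt5e). They were taken by gene symbol from a fixed list of 10 genes, as every probe set that the platform annotation assigns to exactly 1 gene of that list. All 10 genes had such a probe set. Together they had 15 of the 31142 probe sets tested, 12 of 15866 on the array type called chip A and 3 of 15276 on chip B. One further chip A probe set carried 2 gene IDs under the symbol Adora3 and was not counted as a member.

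The RNA came from rat brain cells at postnatal day 7, isolated by flow cytometry as positive for both A2B5 (an epitope on gangliosides that glial precursors carry) and OTMP. The series title calls them perineuronal oligodendrocytes, which are oligodendrocytes lying against neuronal cell bodies. The series holds 1 cell population in 4 biological replicates, each on both array types (8 samples), with no treatment and no control population. Neither the strain nor the number of animals pooled in a replicate is stated in the labels. The p-values therefore measure only the spread between these replicates.

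Each deposited value was a linear ratio, per probe set, to a reference whose identity the labels do not give. A ratio of 4 therefore means more signal than that reference for the same probe set. It does not say how bright a gene was or whether it was expressed at all, and the expression of different genes cannot be ranked by it. The comparison that the design allows is each gene against a ratio of 1, tested with limma over all probe sets of an array type at an adjusted p under 0.05. Means below are of log2 ratios over 4 arrays, given ± SD (n = 4), with geometric mean ratios where a linear value is easier to read.

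ATP released from cells is split outside them by ectonucleotidases, which make ADP and AMP, and the 5'-nucleotidase Nt5e (CD73) then turns AMP into adenosine. ATP and ADP act on P2X receptors, which are ion channels, and on P2Y receptors, which are coupled to G proteins. Adenosine acts on G protein-coupled receptors of which Adora1 and Adora3 lower cyclic AMP, while Adora2a and Adora2b raise it. In brain, these signals link neuronal activity to glia, and both adenosine and ATP are known to act on oligodendrocyte precursors.

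Among the members, 1 ectonucleotidase gene and 1 adenosine receptor gene stood far above the reference. The chip A probe sets of Entpd2 and Adora2b had geometric mean ratios of 5.01 and 4.20. The chip B probe set of P2rx7 was higher as well, at 1.65. Lower than 1 were the chip A probe sets of P2ry1, Nt5e and 1 of the 2 for Adora1, at 0.725, 0.726 and 0.795, and the other 9 probe sets did not pass the test. On chip A, 2 of 12 member probe sets were thus higher, against 9.21% of all chip A probe sets, and 3 of 12 were lower, against 30.1%. On chip B, 1 of 3 was higher and 0 were lower by limma (0 at an unadjusted p under 0.05), against 5.08% and 27.1% of all chip B probe sets. The share of lower calls among the members was near the background. In sorted cells measured in bulk, fewer cells of a type and less RNA per cell cannot be told apart. The median of the members' mean log2 ratios was -0.30 on chip A and -0.15 on chip B, against -0.11 on each type over all probe sets.

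Ratios a little below 1 need care on these arrays. Array medians lay between 0.888 and 0.967, and control probe sets for Bacillus genes (dap, lys, phe, thr and the like) had mean log2 ratios from -1.34 to -0.05 on chip A. Of the 27 such control probe sets on chip A, 17 lay below 1 at an unadjusted p under 0.05 in limma, and 0 lay above. The 14 control probe sets for Escherichia coli genes lay from -0.01 to 0.24, with 0 below 1 by that criterion. The lower members P2ry1, Nt5e and Adora1 lie inside the range of the Bacillus controls. With every array centred on its median, 11.8% of all chip A probe sets were higher and 23.3% lower (1878 and 3689, against 1462 and 4768 without centring). After centring, 2 member probe sets were higher and 2 lower on chip A, and 1 of 3 was higher on chip B, where 5.68% of all probe sets were higher.

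**Figure D1:**
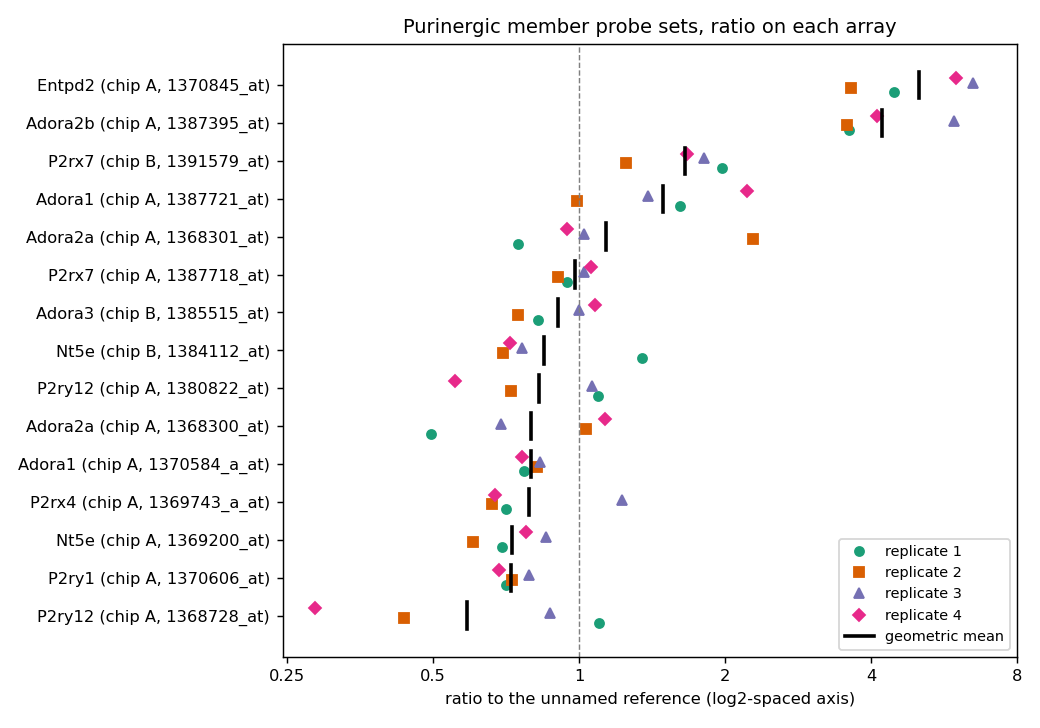
Ratio of each of the 15 member probe sets on each array (symbols for replicates 1 to 4) on a log2-spaced axis, with the geometric mean as a bar and a ratio of 1 as a dashed line. Entpd2 and Adora2b lie between 3.566 and 6.494 on every array, while all other member probe sets stay at or below 2.282.

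Entpd2 encodes NTPDase2, an ectonucleotidase that mainly splits ATP to ADP. Its only probe set (1370845_at, chip A) read 4.453, 3.638, 6.494 and 5.981 in replicates 1 to 4. All 4 arrays were well above the reference, with the lowest ratio in replicate 2. The mean log2 ratio was 2.32 ± 0.39 (limma adjusted p = 0.000251, 95% interval 1.93 to 2.72), higher than in 99.7% of chip A probe sets. The call held under every alternative run, with limma adjusted p from 0.000391 to 0.00257.

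Nt5e, which makes adenosine from AMP, was not higher on either of its probe sets. The chip A probe set (1369200_at) had ratios of 0.693, 0.603, 0.856 and 0.778, all below 1. Its mean log2 ratio was -0.46 ± 0.22 (limma adjusted p = 0.0178), but the call was lost once arrays were centred on their median (-0.34, limma adjusted p = 0.0517), without replicate 1 (-0.44, 0.0642) and when the difference had to exceed 1.2-fold (0.17). The chip B probe set (1384112_at) had 1.346, 0.698, 0.763 and 0.719, with replicate 1 alone above 1. Its mean was -0.24 ± 0.45 (limma adjusted p = 0.388), and without replicate 1 it was -0.46 and passed (0.0105). On chip A the ratios of Entpd2 lay above 1 and those of Nt5e below it, with the Nt5e mean inside the range of the Bacillus controls. The difference between these genes was not tested.

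Adora2b encodes the low-affinity adenosine receptor A2B, which raises cyclic AMP. Its only probe set (1387395_at, chip A) had ratios of 3.594, 3.566, 5.914 and 4.109. Replicate 3 was highest, as it was for Entpd2, and no array came near 1. The mean log2 ratio was 2.07 ± 0.34 (limma adjusted p = 0.00026, 95% interval 1.71 to 2.43), higher than in 99.5% of chip A probe sets. The call held under every alternative run, with limma adjusted p from 0.000419 to 0.00294. The ranges of Entpd2 and Adora2b overlapped over the 4 arrays, although Entpd2 had the higher ratio on each of them. That difference was not tested.

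Because Entpd2 and Adora2b stood highest together, the sequence before their starts is shown, from RefSeq for build GRCr8 (both on the plus strand). RefSeq promoters were listed for 8 of the 10 genes. The Adora2b stretch is chr10:47439462-47439711, the 250 bases before its start. The Entpd2 stretch is chr3:28611566-28611721, cut at 156 bases where the gene model begins upstream of the listed start. Capitals mark matches to GGGCGG (the GC box), CCAAT and TGAGTCA (the AP-1 element) on either strand.
Adora2b: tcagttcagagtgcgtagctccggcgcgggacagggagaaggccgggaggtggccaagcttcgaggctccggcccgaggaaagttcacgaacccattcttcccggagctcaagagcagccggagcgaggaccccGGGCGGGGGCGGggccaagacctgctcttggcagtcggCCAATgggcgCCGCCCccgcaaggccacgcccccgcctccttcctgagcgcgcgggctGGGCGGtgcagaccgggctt
Entpd2: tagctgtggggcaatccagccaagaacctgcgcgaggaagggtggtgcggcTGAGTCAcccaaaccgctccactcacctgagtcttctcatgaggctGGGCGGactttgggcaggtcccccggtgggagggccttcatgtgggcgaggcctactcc

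The GC content of these stretches was 71.2% for Adora2b and 64.1% for Entpd2. In the 250 bases before the listed start, Adora2b held 4 matches to GGGCGG and 1 to CCAAT, and Entpd2 held 2 to GGGCGG, 1 of them beyond the stretch shown, and 1 to TGAGTCA. Among all 33469 listed promoters, 30.5% held GGGCGG, 34% CCAAT and 4.05% TGAGTCA in the same window. GGGCGG was also present before P2rx7 (2 matches), of which only the chip B probe set was higher. It was found as well before Nt5e (3) and P2ry1 (2), which each had a lower probe set. Adora3 held no match to GGGCGG but 1 to TGAGTCA. Adora1 and P2rx4 held no match to either, and none of their 250 bases before the listed start lay outside the gene model. GGGCGG was thus found before members with a higher probe set and members with a lower one. Neither Adora2b nor Entpd2 held TATAAA, TGACGTCA or ACGTG there. No match in these stretches overlapped a match to another of the motifs searched.

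The other adenosine receptor genes did not share this position. Adora2a encodes the other receptor that raises cyclic AMP. Its probe set 1368301_at read 0.747, 2.282, 1.025 and 0.945, and 1368300_at read 0.495, 1.035, 0.69 and 1.131. Replicate 2 was high and replicate 1 low on the former, and both probe sets spanned 1. Their means were 0.18 ± 0.70 and -0.33 ± 0.55 (limma adjusted p = 0.64 and 0.286). The 95% intervals, -0.50 to 0.86 and -0.88 to 0.21, lay wholly below that of Adora2b.

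Adora1, the A1 receptor gene, gave different answers from its 2 probe sets. Probe set 1370584_a_at had ratios of 0.77, 0.82, 0.83 and 0.761, tight and below 1. Its mean was -0.33 ± 0.06 (limma adjusted p = 0.0113), and it lost the call without replicate 1 (0.0531), without replicate 4 (0.0502) and against a 1.2-fold difference (0.423). Probe set 1387721_at had 1.614, 0.988, 1.389 and 2.223, with only replicate 2 not above 1. Its mean was 0.57 ± 0.49 (limma adjusted p = 0.0664), and without replicate 2 it was 0.77 and passed as higher (0.0185). The 2 sets of ratios did not overlap, so no single direction can be given for Adora1.

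Adora3, the A3 receptor gene, was read by 1 member probe set (1385515_at, chip B) with ratios of 0.822, 0.748, 0.999 and 1.08. These lay around 1, with a mean of -0.15 ± 0.25 (limma adjusted p = 0.356). The chip A probe set with 2 gene IDs under the symbol Adora3 (1369272_at) had 0.803, 0.58, 1.209 and 0.535, with a mean of -0.43 ± 0.53 (limma adjusted p = 0.166). RefSeq's genes for GRCr8 include 1 Adora3, and its ID is not the one given to the chip B probe set.

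**Figure D2:**
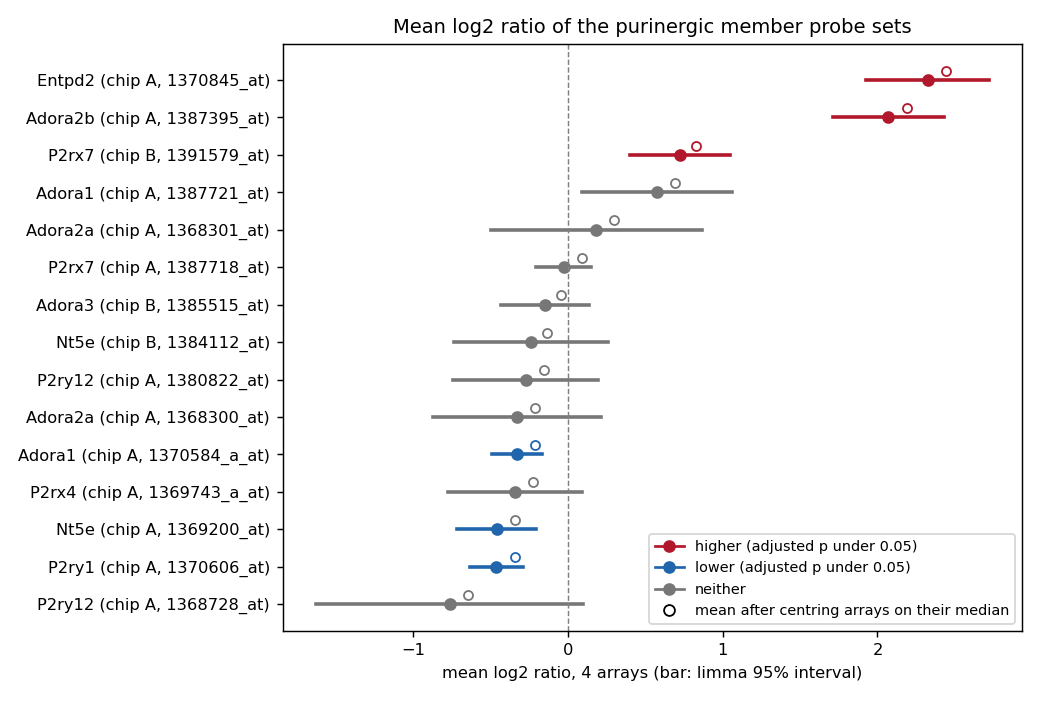
Mean log2 ratio over 4 arrays of the 15 member probe sets (filled circles) with limma's 95% interval (bars), coloured by call against a ratio of 1, and the mean after centring arrays on their median (open circles, coloured by that test). Entpd2 at 2.32 and Adora2b at 2.07 stand apart from the rest, and centring moves the lower Nt5e probe set from a call to none.

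Genes for ATP-gated channels gave a mixed picture. P2rx7 encodes the P2X7 receptor, which opens at high ATP. Its chip B probe set (1391579_at) read 1.969, 1.251, 1.806 and 1.667, above 1 on every array and lowest in replicate 2. The mean was 0.72 ± 0.28 (limma adjusted p = 0.0114), and it did not pass without replicate 4 (0.72, limma adjusted p = 0.0506). Its chip A probe set (1387718_at) read 0.942, 0.905, 1.025 and 1.057, close to 1, with a mean of -0.03 ± 0.10 (limma adjusted p = 0.784). The 2 P2rx7 probe sets did not overlap, although the array types were tested separately and their ratios may not share a scale, and the sign of the chip A mean turned to 0.09 after centring.

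P2rx4, which encodes the P2X4 channel, was read by 1369743_a_at at 0.708, 0.662, 1.226 and 0.672. Replicate 3 stood alone above 1. The mean was -0.34 ± 0.43 (limma adjusted p = 0.176), and without replicate 3 it was -0.56 and passed as lower (0.00829).

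Of the ADP receptor genes, P2ry1 was the steadier. P2ry1 encodes a G protein-coupled receptor that releases calcium from internal stores. Its probe set (1370606_at, chip A) had 0.706, 0.726, 0.788 and 0.684, all below 1 and close together. The mean was -0.46 ± 0.09 (limma adjusted p = 0.00417). That value lies inside the range of the Bacillus controls on chip A, whose median SD, 0.0911, was similar. The call held after centring (-0.35, limma adjusted p = 0.0066) and without any 1 replicate (0.0105 to 0.0233), but not against a 1.2-fold difference (0.0607).

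P2ry12 encodes the ADP receptor by which microglia, the macrophages of brain, sense injury, and it is widely used as their marker. Its probe set 1368728_at had ratios of 1.098, 0.436, 0.872 and 0.286, the widest spread among the members. The second, 1380822_at, had 1.094, 0.724, 1.063 and 0.555. Both were highest in replicate 1 and lowest in replicate 4, with replicates 1 and 3 above replicates 2 and 4. Their means were -0.77 ± 0.89 and -0.27 ± 0.47 (limma adjusted p = 0.137 and 0.304), so neither differed from the reference beyond the spread between replicates.

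The values of other microglia genes are given beside P2ry12. The microglia list without P2ry12 had 14 probe sets of 12 genes on chip A, among them Cx3cr1, Csf1r and C1qb, and 0 were higher than a ratio of 1 by limma (0 at an unadjusted p under 0.05) while 5 were lower (1 after centring). With 30.1% of all chip A probe sets lower, or 23.3% after centring, those counts are no result about microglia genes. Their median log2 ratio was -0.47, -0.80, -0.05 and -0.73 in replicates 1 to 4, so the medians of replicates 2 and 4 were the lower pair, as for P2ry12. Of the 14, 12 were highest in replicate 3 and 1 in replicate 1, where P2ry12 was highest, and 8 were lowest in replicate 4. Over all 15866 chip A probe sets 5733 were highest in replicate 3 and 5678 lowest in replicate 4. P2rx4 was also highest in replicate 3. The part of microglia in the P2ry12 and P2rx4 values was not tested.

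**Figure D3:**
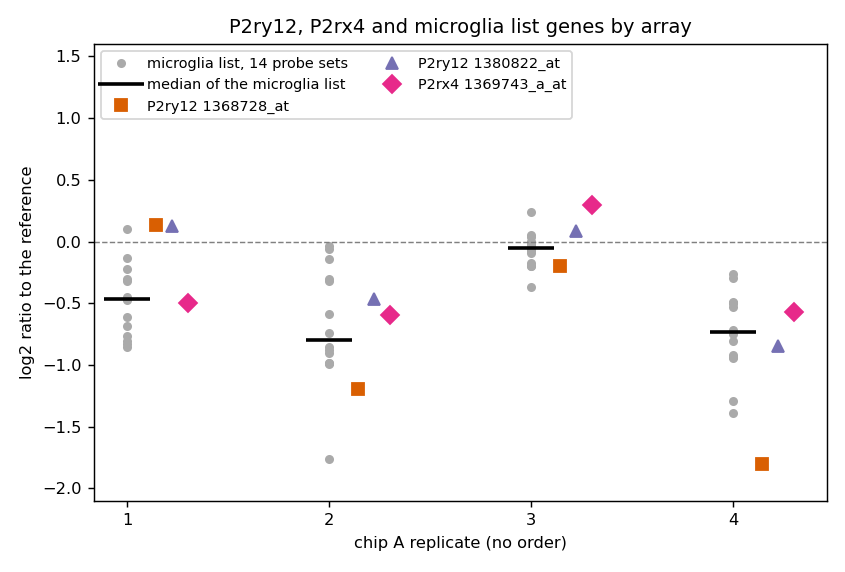
Log2 ratio on each chip A array of the 14 microglia list probe sets (grey), their median (bar), both P2ry12 probe sets and P2rx4. The list median lies at -0.05 in replicate 3 and at -0.80 and -0.73 in replicates 2 and 4, and both P2ry12 probe sets are lowest in replicate 4.

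Markers of other cells are given beside the higher members. Over all chip A probe sets 9.21% were higher and 30.1% lower, or 11.8% and 23.3% after centring. The shares on chip B were 5.08% and 27.1% without centring. The series title names oligodendrocytes. On chip A 1 of 12 probe sets of the oligodendrocyte list was higher (Pdgfra, the precursor receptor gene, mean 0.93 ± 0.65) and 1 was lower. The other 10, which included Mbp, Mog, Olig1 and Sox10, passed in neither direction. After centring, 2 probe sets of this list on chip A were higher, those of Pdgfra and Mag, and none was lower. On chip B 1 of 3 was lower (an Olig2 probe set at -0.43, limma adjusted p = 0.00624) and the others did not pass. Of the astrocyte list 9 of 12 were higher and 1 was lower, with a list median between 0.93 in replicate 2 and 1.50 in replicate 1. After centring, 10 of the astrocyte probe sets were higher and none was lower. Of the neuron list 6 of 10 on chip A were higher and 1 was lower (a Tubb3 probe set at -0.44), with a median between 0.24 and 0.83, and its only chip B probe set, for Syt1, was lower at -0.45. Of the endothelial list 0 of 7 were higher or lower by limma (0 at an unadjusted p under 0.05). Ratios cannot show that a marker is absent, and the part of these cells in the Entpd2 and Adora2b values was not tested.

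Genes with the ratios most like those of Entpd2 were sought by the smallest root mean square difference in log2 ratio over the 4 chip A arrays, among 12782 single-gene probe sets of other genes. The nearest was Gabrb1, a GABA-A receptor subunit gene, with 3.944, 3.425, 6.129 and 5.404 (difference 0.129). Next were Fzd2, a Wnt receptor gene (0.212), and Lrig1, a regulator of growth factor receptors (0.22). For the P2ry12 probe set 1368728_at, the member with the largest SD, they were Itgb1 (0.199), Dnajc14 (0.241) and Adap2 (0.252). These are descriptions over 4 arrays, and the genes compared share those arrays.

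The wider set of genes for purine receptors, nucleotide breakdown and adenosine turnover held 56 genes, of which 46 were measured. In this set 6 genes had a higher probe set and 18 a lower one, 2 of them both, and 24 had neither. Over all 13810 named genes 9.23% had a higher and 37.7% a lower probe set, so the 18 lower genes were near the background. With arrays centred the counts were 8 and 16, against 11.9% and 30.8%.

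Receptor genes of this set gave no higher call in limma (1, P2rx6, at an unadjusted p under 0.05). Of 5 P2X genes 4 had a lower probe set: P2rx2, whose 3 probe sets had mean log2 ratios of -1.57, -0.95 and -0.85, P2rx5 at -0.86, P2rx3 at -0.50 and P2rx1 at -0.41. Over all named genes 37.7% had a lower probe set. P2rx5 and P2rx3 each had another probe set near 0, at -0.04 and -0.05. P2rx6 stood at 0.38 ± 0.33 (limma adjusted p = 0.086). Of 5 P2Y genes only P2ry2 was lower, at -0.70 ± 0.09 (limma adjusted p = 0.000951). P2ry4 at -0.06, P2ry6 at -0.59, P2ry10 at -0.14 and P2ry14 at -0.70 did not pass. The tight low values of P2rx2, with ratios of 0.322 to 0.35 on its lowest probe set, lie below the lowest Bacillus control on chip A, which had a mean ratio of 0.396. The other 2 P2rx2 probe sets, with geometric mean ratios of 0.518 and 0.553, lie inside the range of those controls. So do the lower probe sets of P2rx5, P2rx3, P2rx1 and P2ry2.

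Genes of enzymes that split nucleotides had calls in both directions. Entpd6, a Golgi and secreted enzyme, at 0.64 ± 0.13 (limma adjusted p = 0.00211), and Entpd4, a Golgi enzyme, at 0.25 ± 0.05 (0.0289), were higher on chip A. The Entpd4 mean is a ratio of 1.19, below the 1.2-fold difference of the alternative test. In that test 3 genes of the wider set stayed higher, against 6 in the main one. The chip B probe set of Entpd4 stood at -0.16 (limma adjusted p = 0.195). Entpd1, the CD39 enzyme found on microglia and vessels, was lower at -0.45 ± 0.21 (limma adjusted p = 0.0186), as was Entpd3 on chip B at -0.52 ± 0.05 (0.000896). Entpd5 did not pass on either type. Of 5 measured Entpd genes beside Entpd2, 2 were thus higher and 2 lower, and none reached the ratio of Entpd2. The shares over all named genes were 9.23% with a higher and 37.7% with a lower probe set. The lower count was near that background. Among 6 phosphodiesterase genes of the Enpp family only Enpp5 passed, at 0.34 ± 0.11 (limma adjusted p = 0.0146). The acid phosphatase gene Acp3 was lower at -0.44 (0.0194) but not after centring (-0.33, 0.0606), and the cytosolic nucleotidase gene Nt5c at -0.93 ± 0.19 (0.00101). The lower values of Entpd1, Acp3 and Nt5c lie inside the range of the Bacillus controls on chip A, -1.34 to -0.05. That of Entpd3 lies inside the range of those controls on chip B, -1.32 to -0.03.

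Both measured genes of the enzymes that clear adenosine were called lower, where 37.7% of all named genes had a lower probe set. Their mean log2 ratios lie inside the range of the Bacillus controls on chip A, -1.34 to -0.05. Adk, the adenosine kinase gene, was lower on both probe sets at -0.62 and -0.52 (limma adjusted p = 0.033 and 0.00486), and Ada, the adenosine deaminase gene, was lower at -0.43 ± 0.11 (0.00677). After centring, 1 of the 2 Adk probe sets no longer passed (limma adjusted p = 0.0747). Ampd3, an AMP deaminase gene, was higher at 1.01 ± 0.29 (limma adjusted p = 0.00215). Slc29a2, an equilibrative nucleoside transporter gene, had a probe set at 1.05 ± 0.14 and another at -1.17 ± 0.10, and Ak4, an adenylate kinase gene, had 0.60 and -1.75, so neither gene has a single direction. Slc29a3 was lower on both probe sets (-0.88 and -0.75), and so were the concentrative transporter genes Slc28a1 (-0.57) and Slc28a3 (-1.15). These values also lie inside the range of those controls. Of the channels that can release ATP, Panx1 had 2 of 3 probe sets lower (-1.44 and -0.78) and Panx3 stood at -0.19 (limma adjusted p = 0.032), which did not pass after centring (0.105). The Panx1 value of -0.78 and that of Panx3 lie inside the range of the Bacillus controls on chip B, -1.32 to -0.03.

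**Figure D4:**
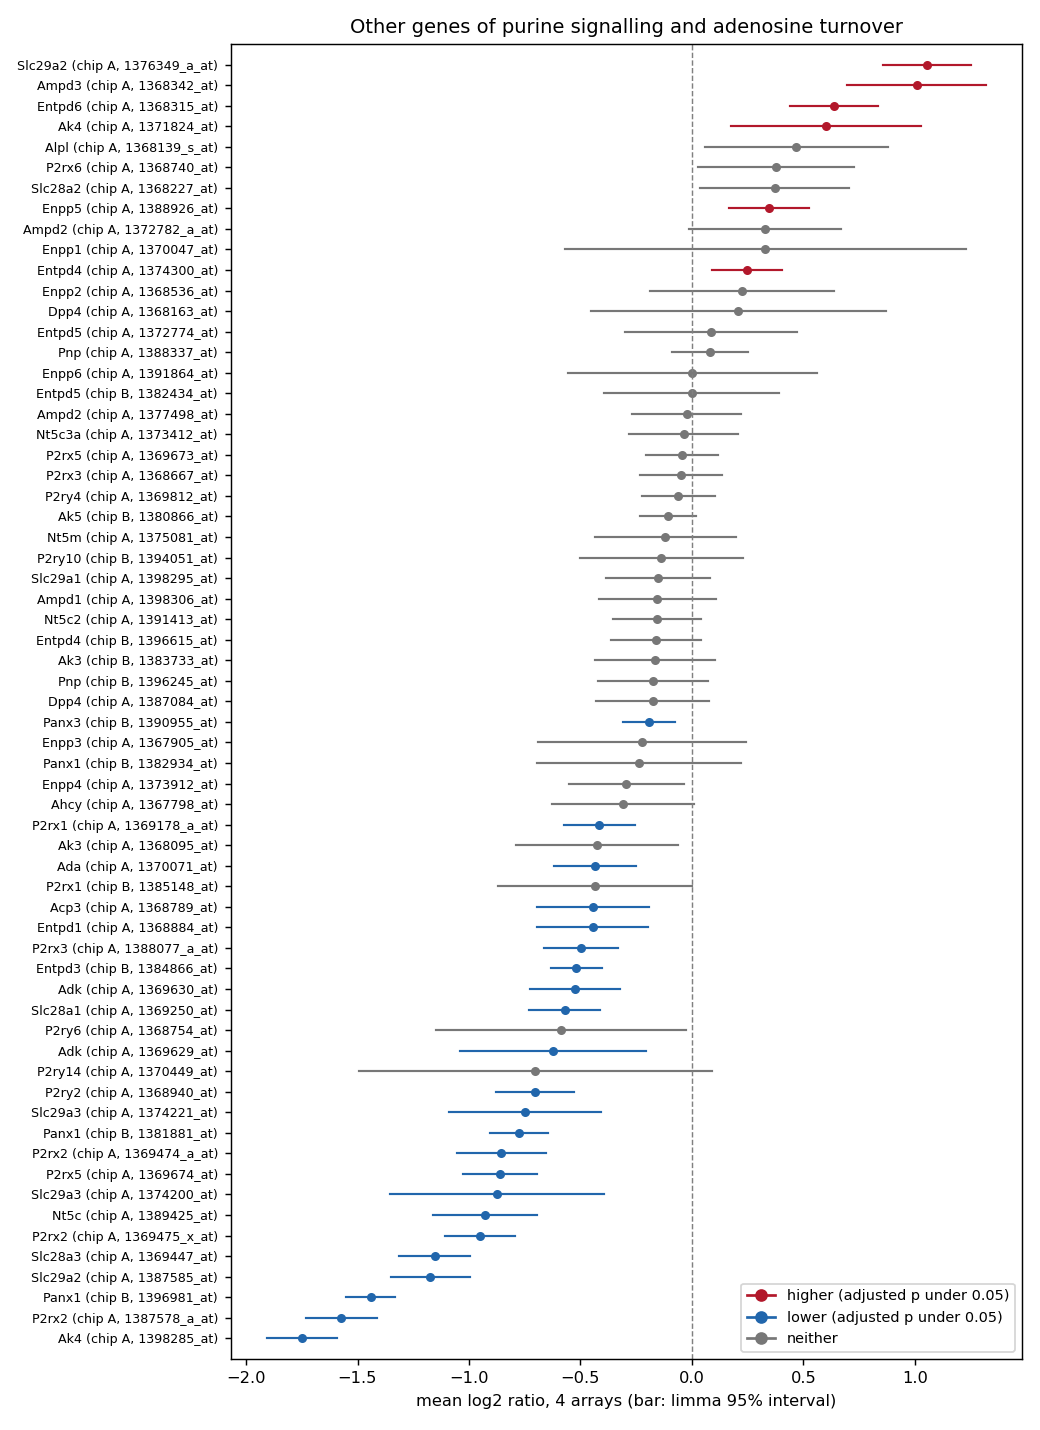
Mean log2 ratio over 4 arrays, with limma's 95% interval, of every measured probe set in the wider purine gene set, coloured by call against a ratio of 1. Slc29a2 and Ak4 appear at both ends of the plot, and the highest value, 1.05, is below the 2.07 of Adora2b.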

How the data were processed

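Total RNA from 4 biological replicates was extracted with a Qiagen kit and biotin-labelled by Affymetrix's small-sample protocol, per the labels' protocols, and read on 2 array types. The submitters' processing notes name RMA without a version. The authors deposited linear ratios to a reference that the labels do not identify or say how to form, so signal over background is unknown.

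Ratios were put on the log2 scale. Control probe sets were left out (57 per array type). The mean was tested against 0, two-sided, with limma 3.58.1 in R 4.3.3 (an intercept and eBayes), with Benjamini-Hochberg adjustment over all probe sets of an array type at 0.05. The test was checked on simulated data, with independent noise on each array and most probe sets centred on a ratio of 1. Such data cannot show how often probe sets without a rat target are called lower. Genes were named from the platform annotation where a probe set had exactly 1 gene ID (12783 on chip A, 7564 on chip B, with 312 and 100 having several and 2771 and 7612 none). The IDs of 9 of the 10 member genes were in the RefSeq table for GRCr8. A gene with any called probe set was counted in that direction.

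Alternatives centred arrays on their median, quantile-normalized them, used a trended robust prior, tested against a 1.2-fold difference with limma's treat, and left out each replicate. Every member probe set is reported, with called genes and receptors of the wider set. The members and gene lists were chosen with earlier results of these data known.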

Additional observations from a re-analysis of the deposited data

Results flagged for a closer look

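In 79 groups of 4 arrays, covering the member probe sets, the chip A probe set with 2 Adora3 gene IDs and the wider purine gene set, 3 had 1 array far from the other 3 by Dixon's criterion, where chance flags about 1 in 20 groups. The chip B probe set of Nt5e read 1.35 in replicate 1, against 0.698 to 0.763 on the others. P2rx4 read 1.23 in replicate 3, against 0.662 to 0.708. Nt5c read 0.432 in replicate 4, against 0.55 to 0.57.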

How the results depend on the processing

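Of 120 member values under the alternatives, 106 kept their direction and their side of the threshold, 8 lost the call, 3 gained one and 3 changed sign. The sign changed for P2rx7 on chip A (-0.03) with arrays centred (0.09) and without replicate 2 (range without 1 replicate -0.06 to 0.0098), and for the higher Adora2a probe set (0.18) without replicate 2 (range -0.16 to 0.38), none of them called. Against a 1.2-fold difference, 798 and 2894 chip A probe sets were higher and lower, 471 on chip B were higher, 0 member probe sets were lower by limma's treat (1 at an unadjusted p under 0.05, and 3 by its test against 1) and 3 genes of the wider set were higher, as many as with the trended robust prior (3). Leaving out 1 replicate gave 1073 to 1343 higher and 3782 to 4292 lower on chip A, 556 to 860 and 3654 to 3771 on chip B, 2 to 4 higher and 2 to 4 lower members, and 3 to 5 higher and 15 to 18 lower genes of the wider set. No paired analysis was possible because the series compares no groups: both array types read the same population.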
